A study of Mus musculus with 10 samples.

Results

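The genes described here are 47 interferon-stimulated genes, that is, genes whose transcription is known to increase when a cell meets interferon. They were selected by name and not by a rule on their values, but with earlier results of these data known. All 47 were present among the 21959 genes of the expression table, and all 47 were among the 13517 genes with enough reads to be tested. By role they were 11 genes of the Ifit, Oas and Mx families, 11 interferon-inducible GTPases of the Gbp and Irg families, 5 regulators of transcription or signaling, 4 sensors of nucleic acids, 3 genes of the ISG15 pathway and 13 other effectors.

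mRNA was sequenced from 10 tumors, 5 of an exercise group (E) and 5 of a non-exercise group (NE), to ask how running alters gene expression in breast tumors. Every mouse was a female BALB/c animal, aged 5 to 6 weeks when obtained, that carried cells of the mouse mammary carcinoma line 4T1 under the skin of the abdomen. E mice could run without limits of speed or distance for 21 days, while NE mice were kept in normal housing for the same time, and the labels and methods name no other agent. The tumors came from 1 cell line at a site outside the breast, the hosts kept their own immune system, and each RNA sample holds tumor and host cells together, so that fewer cells of a type and less RNA per cell cannot be told apart.

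Each tumor had between 15045613 (E5) and 23092251 (NE1) counted reads. Values are given as FPKM, a read density scaled to gene length and library size that allows levels of different genes to be compared, or as CPM, counts scaled to the library size after TMM scaling but not to gene length. The tumors differed in the cells they held. The summed level of 12 skeletal muscle markers ranged from 9.93 CPM in NE1 to 27873 CPM in NE4, with 3886 CPM in E2 as the next highest value. The 6 fibroblast markers summed to 15372 CPM in E5 and to at most 5016 CPM elsewhere, and the 9 macrophage or monocyte markers were lowest in NE1 with 596 CPM, against 1232 to 2298 CPM in the other tumors. Of the 6 epithelial markers checked in this tissue labelled as mammary cancer, Krt8 (0 to 27 reads), Krt18 (2 to 48) and Epcam (10 to 66) were low in every tumor, Krt19 (157 to 498) and Cdh1 (144 to 434) were present in every tumor, and Krt14 ranged from 0 to 1140 reads. In mice described as female, the Y-linked genes Ddx3y (108 to 564 reads), Eif2s3y (92 to 405), Kdm5d (57 to 267) and Uty (37 to 144) had reads in every tumor.

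Type I interferons, the alpha and beta forms, signal through their receptor and the kinases JAK1 and TYK2 to a complex with STAT2 and IRF9, which binds a promoter element called ISRE. Interferon gamma, made mostly by T and NK cells, signals through JAK1 and JAK2 and acts on an element called GAS, and it also raises IRF1, a factor that binds ISRE-like letters. The Ifit, Oas and Mx genes are best known as targets of type I interferon and the Gbp and Irg GTPases as targets of interferon gamma, although each group can respond to both. In tumors the response is known for antigen presentation, for chemokines that draw T cells and for limiting the growth of cells.

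The promoters show how the gene groups differ and overlap in these elements. RefSeq promoter windows (GRCm38.p6, from 250 bases before to 50 bases after a start site) were at hand for 37 of the 47 genes, in 42 windows. An ISRE-type match was defined as GAAA repeated with 2 bases between, on either strand, and a GAS match as TTCNNNGAA, which reads alike on both strands. An ISRE-type match lay in 24 of the 42 windows (57.1%) and in 1131 of all 32851 mouse windows (3.44%), and a GAS match lay in 14 (33.3%) and in 2726 of all windows (8.30%). Windows of the Gbp and Irg GTPases held an ISRE-type match in 9 of 11 cases (81.8%) and a GAS match in 6 (54.5%), with both in 6. Windows of the Ifit and Oas genes held an ISRE-type match in 5 of 9 cases (55.6%) and a GAS match in 2 (22.2%), with both in 1. By these counts the letters of an ISRE were at least as common in the GTPase windows as in the type I windows at hand. No window was at hand for Mx1, Mx2 and Oas2 of the type I families or for Iigp1 of the GTPases. Counted by gene, 5 of 8 type I genes and 9 of 10 GTPases with a window had an ISRE-type match. A window with several matches was counted once, matches of both kinds shared 3 bases in the windows of Bst2 and Ifitm3, and a match is a string of letters, not a shown binding site.

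The windows of 4 Irg genes are shown first because their GAS and ISRE-type matches stood side by side, and a window of Gbp2 follows as that of the GTPase with the highest level. Each is written 5′ to 3′ on the strand of its gene, with the matches in capitals and 12 bases on either side.
Igtp, forward strand, chr11:58199499-58199543: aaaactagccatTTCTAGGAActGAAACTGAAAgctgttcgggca
Irgm2, forward strand, chr11:58214890-58214934: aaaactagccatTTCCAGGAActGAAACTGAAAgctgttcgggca
Tgtp1, reverse strand, chr11:48992302-48992346: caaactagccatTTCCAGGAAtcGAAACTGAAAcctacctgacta
Tgtp2, reverse strand, chr11:49064261-49064305: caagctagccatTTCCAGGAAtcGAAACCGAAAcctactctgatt
Gbp2, forward strand, chr3:142620592-142620625: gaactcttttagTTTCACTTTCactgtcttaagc
In the first 4 of these windows the ISRE-type match began 11 bases after the start of the GAS match. This spacing was noticed in the windows and then counted, and it occurred in 5 of all 32851 windows (0.0152%), those of Igtp, Irgm2, Tgtp1, Tgtp2 and Gm12185, all on chromosome 11. The genes are relatives with shared sequence, so these are not separate observations.

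Windows of the type I families and of Isg15 are shown next, where ISRE-type matches stood in pairs or in a row, and those of Irf1 and Socs1 last, as regulators with a different content.
Ifit1, forward strand, chr19:34640773-34640825: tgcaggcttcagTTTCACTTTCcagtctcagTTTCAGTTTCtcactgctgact
Ifit3, forward strand, chr19:34583361-34583428: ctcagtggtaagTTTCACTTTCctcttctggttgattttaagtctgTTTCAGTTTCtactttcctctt
Oas1a, reverse strand, chr5:120907518-120907557: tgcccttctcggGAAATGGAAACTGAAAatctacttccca
Isg15, reverse strand, chr4:156200863-156200908: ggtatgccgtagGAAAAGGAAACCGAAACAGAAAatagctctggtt
Irf1, forward strand, chr11:53769912-53769944: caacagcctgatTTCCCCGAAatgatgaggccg
Socs1, reverse strand, chr16:10785592-10785631: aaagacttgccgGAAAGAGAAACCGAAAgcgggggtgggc
The Irf1 window held a GAS match and no ISRE-type match, while the Socs1 window held 2 overlapping ISRE-type matches and no GAS match. Ifit1 and Ifit3 each held 2 ISRE-type matches apart from each other, and Isg15 held 3 that overlapped. In Oas1a, 2 overlapping matches ended just before the start site, and a GAS match lay further upstream, outside the stretch shown.

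**Figure D1:**
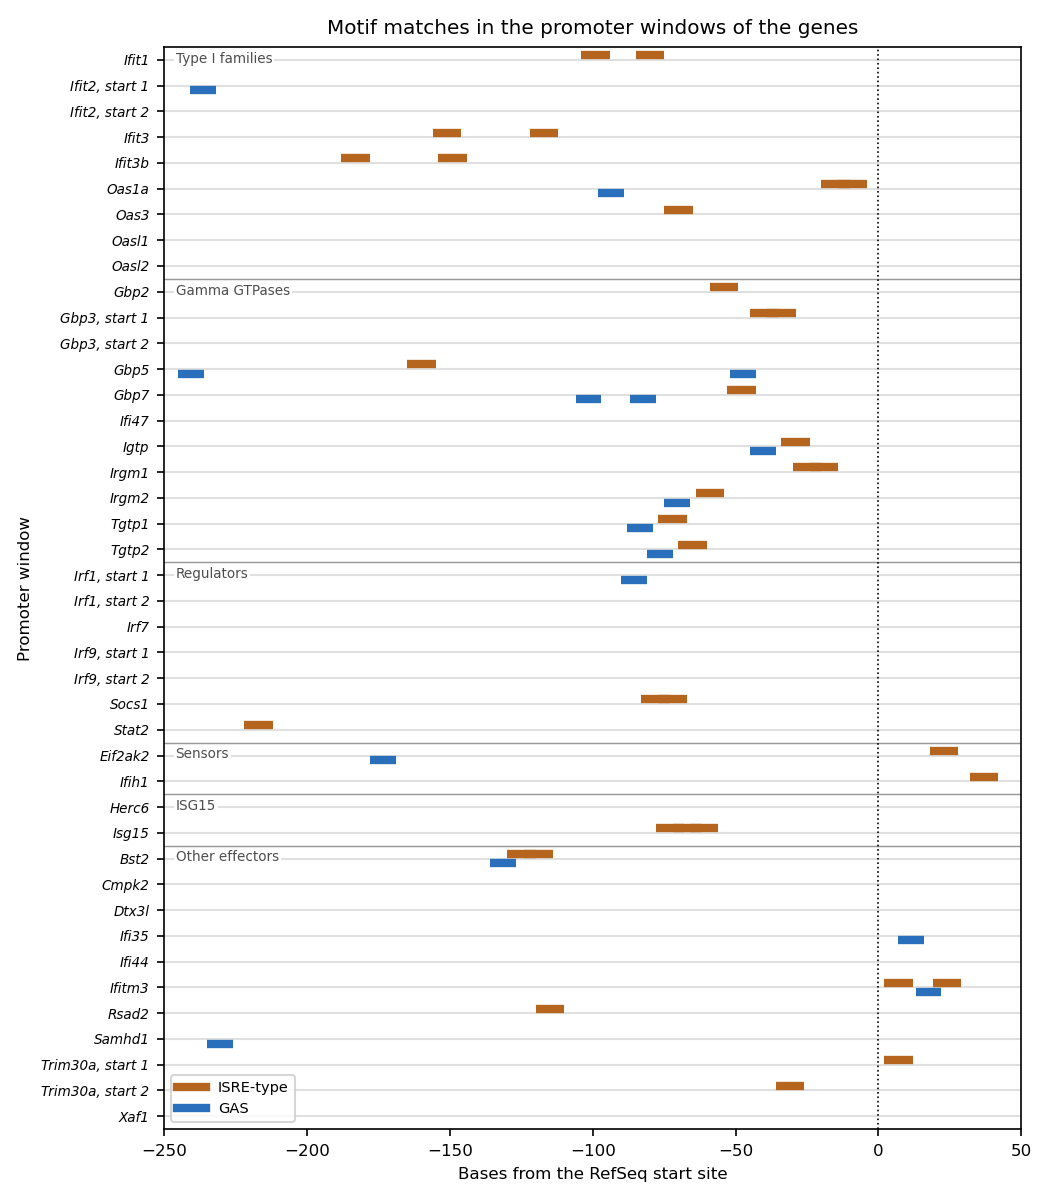
Positions of ISRE-type matches (brown) and GAS matches (blue) in 42 promoter windows, in bases from the RefSeq start site, with the genes grouped by role. The 4 Irg windows with adjoining matches are those of Igtp, Irgm2, Tgtp1 and Tgtp2, and matches in the other windows lie at various distances.

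The plot of motif positions shows that most ISRE-type matches lay upstream of the start site, while some genes, such as Oasl1, Oasl2, Irf7, Cmpk2 and Xaf1, had neither match in their window. For 10 genes no window was at hand, namely Dhx58, Iigp1, Mx1, Mx2, Oas2, Parp14, Parp9, Rtp4, Usp18 and Zbp1.

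The genes of a class lie in clusters. In the GRCm38 annotation, Ifit1, Ifit2 and Ifit3 lie together on the forward strand of chromosome 19, with Ifit3 at chr19:34583531-34588731, and Oas1a lies on the reverse strand at chr5:120896256-120907521 beside Oas2 and Oas3. Mx1 is at chr16:97447035-97462907. The Gbp genes stand in a row on the forward strand of chromosome 3, with Gbp2 at chr3:142620602-142638008. Irgm1 (chr11:48861968-48871683), Tgtp2 (chr11:49057194-49064206), Igtp (chr11:58199556-58207591) and Irgm2 (chr11:58199618-58222782) are all on chromosome 11, as is Dhx58 (chr11:100694884-100704271). The regulator Irf7 is at chr7:141262706-141266481, and Isg15 is at chr4:156199424-156200818.

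Every one of the 47 genes was expressed in every tumor. Mean FPKM over the 10 tumors ranged from 3.44 for Mx2 to 677 for Ifitm3, with a median of 24.0, against a median of 6.404 over all genes tested. The GTPases were the more abundant class. Their mean levels ran from 17.2 FPKM for Gbp5 to 306 FPKM for Gbp2, with a median of 58.5, while those of the type I families ran from 3.44 to 33.6 FPKM with a median of 12.02. Outside the classes, Bst2 (tetherin, which holds budding virus at the cell surface) had 283 FPKM, Irf1 88.7 FPKM and Isg15 88.5 FPKM, whereas Socs1 had 6.30 FPKM and Ifih1 (the RNA sensor MDA5) 6.62 FPKM.

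**Figure D2:**
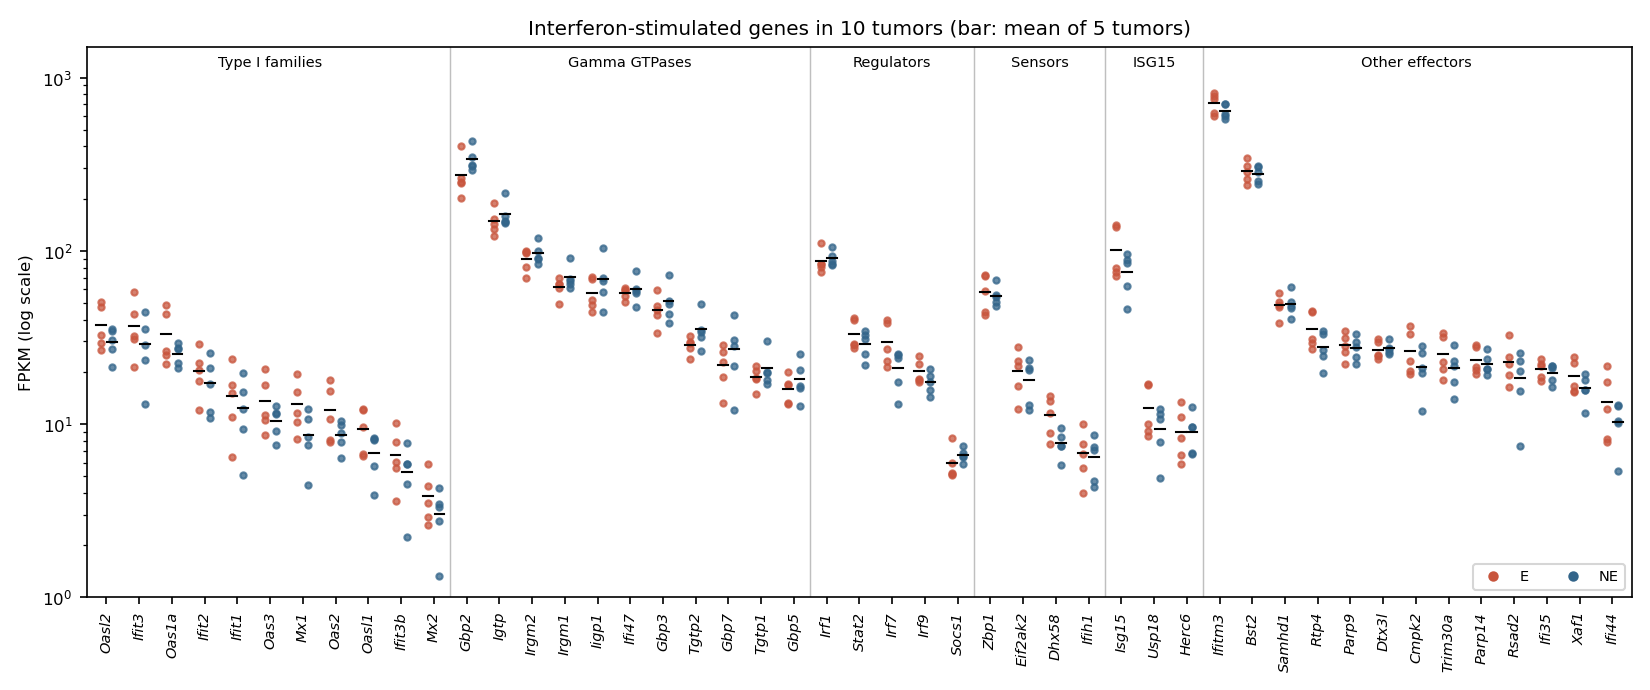
FPKM of the 47 genes in each of the 10 tumors, on a log axis, with E tumors in red, NE tumors in blue and a bar at the mean of 5 tumors. Ifitm3, Gbp2 and Bst2 stand highest and Mx2 lowest, and the points of E and NE overlap for every gene.

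The plot of levels by gene also shows how unevenly the classes varied between tumors. The SD of log2(CPM + 1) over the 10 tumors had a median of 0.482 for the type I families, 0.298 for the GTPases and 0.179 for all genes tested. Ifit1 was the most variable of the 47, with a 4.62-fold range between its highest and lowest FPKM, and Dtx3l the least, with a 1.31-fold range.

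In the comparison of E with NE, 0 of the 47 interferon-stimulated genes were called, that is, had both an FDR no higher than 0.05 and a change of 2-fold or more, and 0% of all 13517 genes tested were. FDR of the 47 genes ranged from 0.897 to 0.990 (edgeR's quasi-likelihood test). The direction of the fold changes nevertheless differed by class. Log2 fold changes were above 0 in 31 of the 47 genes, against 46.0% of all genes tested, in 11 of the 11 genes of the type I families and in 0 of the 11 GTPases. Log2 fold changes below 0 were found in 16 of the 47 genes, against 54.0% of all genes. The median log2 fold change was 0.33 for the type I families, -0.21 for the GTPases and 0.15 for all 47 genes, against -0.01 for all genes tested. Genes of a class varied together between tumors, so that 11 of 11 is not a count of independent observations.

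At an unadjusted p of at most 0.05, 1 of the 47 genes was higher in E (Dhx58), where 2.57% of all genes tested were, and 1 was lower in E (Tgtp2), where 2.29% were. The groups did not overlap in CPM for 0 of the 47 genes, compared with 0.725% of all genes. The share of the 47 genes past each of these limits was therefore close to the background or below it.

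**Figure D3:**
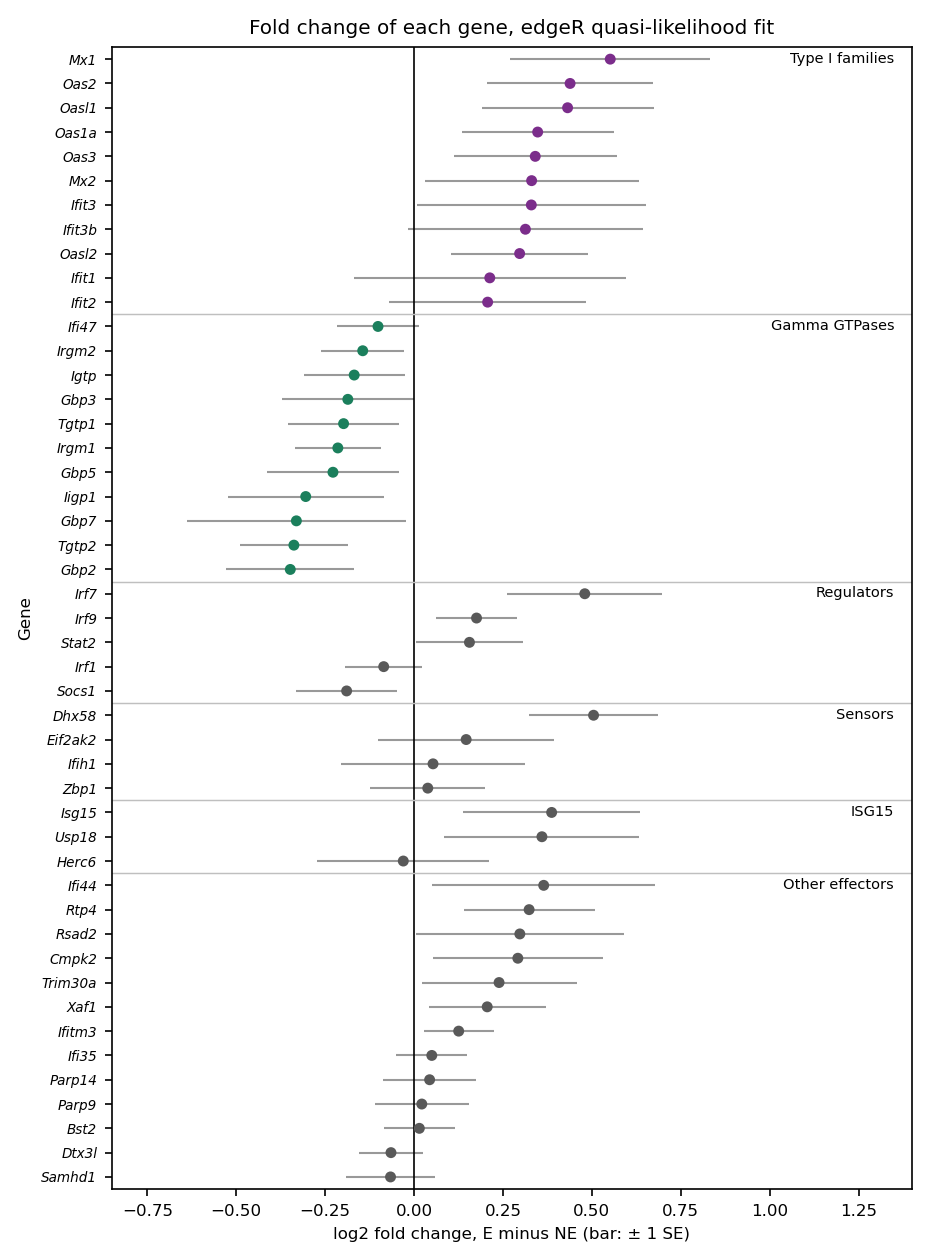
Log2 fold change of E over NE for each of the 47 genes with its standard error, from edgeR's quasi-likelihood fit, by role. All 11 points of the type I families (purple) lie to the right of 0, from 0.21 for Ifit2 to 0.55 for Mx1, and all 11 points of the GTPases (green) lie to the left, from -0.35 for Gbp2 to -0.10 for Ifi47.

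The plot of fold changes shows that the standard errors of the type I genes were wide. Mx1 encodes a dynamin-like GTPase against influenza virus, and BALB/c mice are known to carry a deletion in it, so that its RNA is read here and not its function. In E1 to E5 it had 8.20, 15.4, 10.3, 19.4 and 11.6 FPKM, and in NE1 to NE5 it had 8.48, 7.56, 12.2, 4.47 and 10.7 FPKM. The means were 12.98 ± 4.45 in E and 8.69 ± 2.99 in NE (mean ± SD of 5 tumors each), with a log2 fold change of 0.55 (SE 0.281, FDR 0.897). E4 and E2 were above all NE tumors and NE4 was below all others, while E1, E3 and E5 lay within the range of NE.

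The Ifit proteins bind foreign RNA and block its translation. Ifit3 had 21.3, 43.2, 32.4, 57.5 and 31.0 FPKM in E1 to E5 and 28.8, 23.4, 44.2, 13.1 and 35.4 FPKM in NE1 to NE5. Its log2 fold change was 0.33 (SE 0.322, FDR 0.898), and the groups overlapped over most of their range, with the highest tumor in E and the lowest in NE. Ifit2 had means of 20.4 ± 6.22 FPKM in E and 17.3 ± 6.35 FPKM in NE, the smallest log2 fold change of the class at 0.21 (SE 0.277). Ifit3 shares 51.2% of its stretches of 50 bases with Ifit3b, so that their reads may be split between them.

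The Oas enzymes make short adenylate chains that switch on RNase L when they meet viral RNA. Oas1a had 26.6, 48.8, 22.2, 43.4 and 25.1 FPKM in E1 to E5 and 27.5, 22.4, 29.4, 21.0 and 27.3 FPKM in NE1 to NE5. E2 and E4 lay above all other tumors, and the remaining 3 E tumors lay within the range of NE. The log2 fold change was 0.35 (SE 0.213, FDR 0.897), and 57.6% of its stretches of 50 bases also occur in Oas1g. Oas2 also had its highest values in E2 and E4, with means of 12.03 ± 4.49 FPKM in E and 8.68 ± 1.60 FPKM in NE and a log2 fold change of 0.44 (SE 0.233, FDR 0.897). Oasl2, an Oas-like protein, was the most abundant of the class, with 37.4 ± 10.8 FPKM in E and 29.8 ± 5.68 FPKM in NE (log2 fold change 0.30, SE 0.194).

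The guanylate-binding proteins and the immunity-related GTPases attack the membranes around intracellular microbes. Gbp2, a guanylate-binding protein, had 403, 250, 246, 265 and 201 FPKM in E1 to E5 and 294, 310, 431, 349 and 315 FPKM in NE1 to NE5. All E tumors except E1 were below all NE tumors, and E1 was above all of them except NE3. The means were 273 ± 76.7 FPKM in E and 340 ± 54.8 FPKM in NE (mean ± SD of 5 tumors each), with a log2 fold change of -0.35 (SE 0.179, FDR 0.897).

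Tgtp2, an Irg GTPase named after T cells, had 32.3, 29.4, 27.3, 29.8 and 23.7 FPKM in E1 to E5 and 26.3, 34.9, 49.3, 33.9 and 31.9 FPKM in NE1 to NE5. Its groups overlapped, since NE1 was lower than every E tumor but E5 and E1 was higher than NE5. The log2 fold change was -0.34 (SE 0.152, unadjusted p = 0.0498, FDR 0.897 in edgeR's fit). Tgtp2 shares 86.6% of its stretches of 50 bases, nearly all of them with Tgtp1, so that the values of these neighbors on chromosome 11 are uncertain as separate measurements, and Tgtp1 itself had a log2 fold change of -0.20 (SE 0.157).

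Igtp and Irgm2 are regulatory members of the Irg family, and their annotated spans on chromosome 11 overlap. Igtp had 190, 152, 133, 143 and 122 FPKM in E1 to E5 and 146, 144, 215, 159 and 148 FPKM in NE1 to NE5, with a log2 fold change of -0.17 (SE 0.142). Irgm2 had means of 89.4 ± 13.4 FPKM in E and 96.8 ± 13.1 FPKM in NE, and a log2 fold change of -0.14 (SE 0.117). Irgm1, a further regulatory member, had 69.9, 60.9, 64.3, 64.5 and 49.5 FPKM in E1 to E5 and 64.3, 66.9, 90.6, 60.9 and 68.6 FPKM in NE1 to NE5, and a log2 fold change of -0.21 (SE 0.121). For each of these genes NE3 was the highest and E5 the lowest tumor, and the other tumors of both groups were mixed.

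Among the 5 regulators, 3 had a log2 fold change above 0 and 2 below. Irf7, which amplifies the production of type I interferon, had 23.2, 38.2, 21.4, 39.9 and 27.2 FPKM in E1 to E5 and 24.0, 17.6, 25.5, 13.1 and 25.1 FPKM in NE1 to NE5. Its log2 fold change was 0.48 (SE 0.218, unadjusted p = 0.0515, FDR 0.897 in edgeR's fit), with E2, E4 and E5 above every NE tumor and E1 and E3 within the range of NE. Stat2, a subunit of the complex that binds ISRE, had 33.1 ± 6.68 FPKM in E and 29.1 ± 5.28 FPKM in NE, and a log2 fold change of 0.16 (SE 0.150). Irf1 had 111, 83.5, 83.8, 81.0 and 75.8 FPKM in E1 to E5 and 92.8, 84.0, 106, 86.8 and 82.7 FPKM in NE1 to NE5, so that E1 was the highest tumor while the other 4 E tumors stood in the lower part of the range or below that of NE. Its log2 fold change was -0.09 (SE 0.108). Socs1, an inhibitor of JAK kinases, had 5.96 ± 1.38 FPKM in E and 6.65 ± 0.577 FPKM in NE, with a log2 fold change of -0.19 (SE 0.142).

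All 4 sensors had log2 fold changes above 0. Dhx58 encodes LGP2, a helper of the RNA sensors RIG-I and MDA5, and it had the smallest p of the 47 genes. It had 8.94, 14.5, 7.65, 13.7 and 11.6 FPKM in E1 to E5 and 7.50, 7.52, 9.54, 5.82 and 8.42 FPKM in NE1 to NE5. E2, E4 and E5 were above all NE tumors, and E1 and E3 were within their range. The means were 11.3 ± 2.94 FPKM in E and 7.76 ± 1.37 FPKM in NE (mean ± SD of 5 tumors each), the log2 fold change was 0.50 (SE 0.181, unadjusted p = 0.0184, FDR 0.897 in edgeR's fit), and the gene ranked 184 by p among the 13517 genes tested. Eif2ak2, the kinase PKR that halts translation, had 20.3 ± 6.06 FPKM in E and 17.97 ± 5.16 FPKM in NE (log2 fold change 0.15, SE 0.247). Zbp1, a sensor of left-handed nucleic acids that can start necroptosis, was the most abundant sensor, with 58.0 ± 14.5 FPKM in E and 55.2 ± 7.59 FPKM in NE. Its log2 fold change of 0.04 (SE 0.162) changed sign when E2, E4 or NE2 was left out.

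ISG15 is a ubiquitin-like protein that is linked to other proteins by HERC ligases and removed by USP18. Isg15 had 75.4, 138, 71.5, 141 and 79.6 FPKM in E1 to E5 and 88.8, 62.7, 96.2, 46.1 and 85.5 FPKM in NE1 to NE5. The log2 fold change was 0.39 (SE 0.249, FDR 0.897), with E2 and E4 above every NE tumor and E1, E3 and E5 within the range of NE. Usp18, which also blocks the type I receptor, had 12.3 ± 4.27 FPKM in E and 9.42 ± 3.03 FPKM in NE and a log2 fold change of 0.36 (SE 0.274). Herc6, the main ligase for ISG15 in mice, had 9.04 ± 3.09 FPKM in E and 9.04 ± 2.38 FPKM in NE, and its log2 fold change of -0.03 (SE 0.242) turned positive under library size scaling alone and in 3 of the fits that left out a tumor.

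Of the 13 other effectors, 11 had log2 fold changes above 0, with a median of 0.13. The largest was that of Ifi44 at 0.36 (SE 0.313), and Rtp4 had 0.32 (SE 0.184). Ifitm3, which stops viruses from fusing with endosomes, had 751, 809, 621, 786 and 603 FPKM in E1 to E5 and 596, 617, 705, 574 and 708 FPKM in NE1 to NE5. Its log2 fold change was 0.13 (SE 0.0988), with E1, E2 and E4 above every NE tumor. The lowest log2 fold changes were those of Samhd1, an enzyme that breaks down nucleotides (-0.07, SE 0.124, and positive without NE3), and Dtx3l, a ubiquitin ligase (-0.06, SE 0.0895). Bst2 had 288 ± 40.5 FPKM in E and 279 ± 30.4 FPKM in NE, and its log2 fold change of 0.01 (SE 0.101) turned negative without any 1 of E2, E4, NE2 and NE4.

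The classes were compared within each tumor as the mean log2(CPM + 1) of their 11 genes. For the type I families this level was 4.99, 5.92, 5.34, 6.09 and 5.36 in E1 to E5 and 5.22, 5.11, 5.68, 4.57 and 5.49 in NE1 to NE5. For the GTPases it was 7.65, 7.56, 7.58, 7.68 and 7.23 in E1 to E5 and 7.38, 7.73, 8.23, 7.73 and 7.71 in NE1 to NE5. The ends of the 2 classes were held by different tumors. NE4 was lowest in FPKM for all 11 genes of the type I families, with E4 highest for 8 and E2 for 3, whereas NE3 was highest for all 11 GTPases, with E5 lowest for 7 and NE1 for 4. The type I level minus the GTPase level was -2.66, -1.64, -2.24, -1.58 and -1.87 in E1 to E5 and -2.16, -2.61, -2.55, -3.17 and -2.22 in NE1 to NE5. Its mean was -2.0 ± 0.453 in E and -2.54 ± 0.401 in NE (mean ± SD of 5 tumors each), and although E4, E2 and E5 had the highest values and NE4 the lowest, E1 lay below every NE tumor but NE4, so that the groups overlapped. No test was made on these levels, since the genes were listed with results of these data known.

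**Figure D4:**
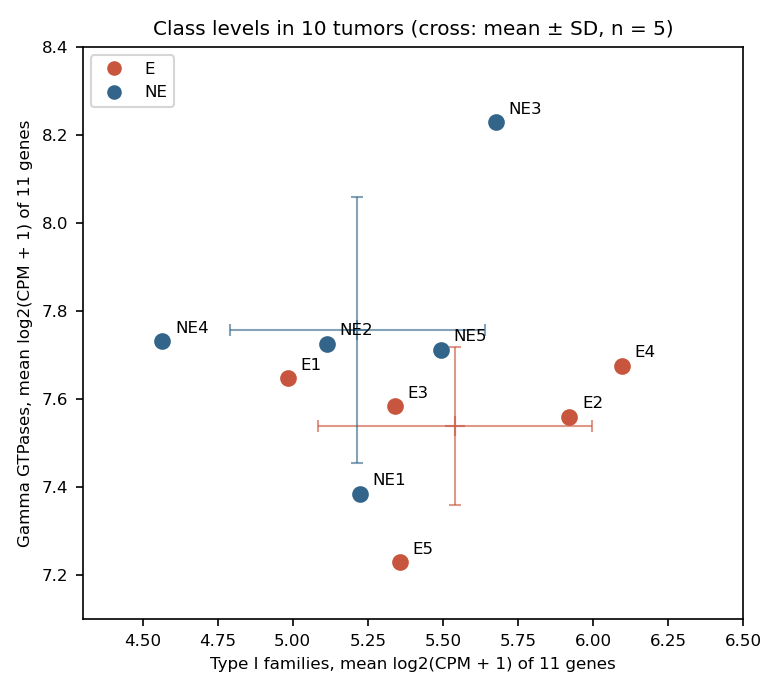
Mean log2(CPM + 1) of the 11 GTPases against that of the 11 genes of the type I families, 1 point per tumor, with E in red, NE in blue and a cross at the mean ± SD of each group. E4 and E2 lie farthest right at 6.09 and 5.92, NE4 farthest left at 4.57, NE3 highest at 8.23 and E5 lowest at 7.23.

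The plot of class levels shows no shared ordering of the tumors. Over the 10 tumors, Spearman's rho between genes of the type I families had a median of 0.879 over 55 pairs, with a range of 0.733 to 0.988. Between GTPases the median was 0.576 over 55 pairs, with a wider range of -0.115 to 0.915. Between a type I gene and a GTPase the median was -0.02 over 121 pairs, close to the -0.01 for pairs of 1000 genes drawn from those tested. Single pairs between the classes ranged from -0.552 to 0.806. These values describe the same 10 libraries and all pairs share them. Of the 25 other genes, 21 had a higher median rho with the type I families than with the GTPases, led by Stat2 and Rsad2 with 0.915 each and Rtp4 with 0.903. The 4 exceptions were Irf1 (-0.44 with the type I families and 0.55 with the GTPases), Socs1 (-0.41 and 0.61), Samhd1 (0.03 and 0.70) and Dtx3l (0.54 and 0.55).

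**Figure D5:**
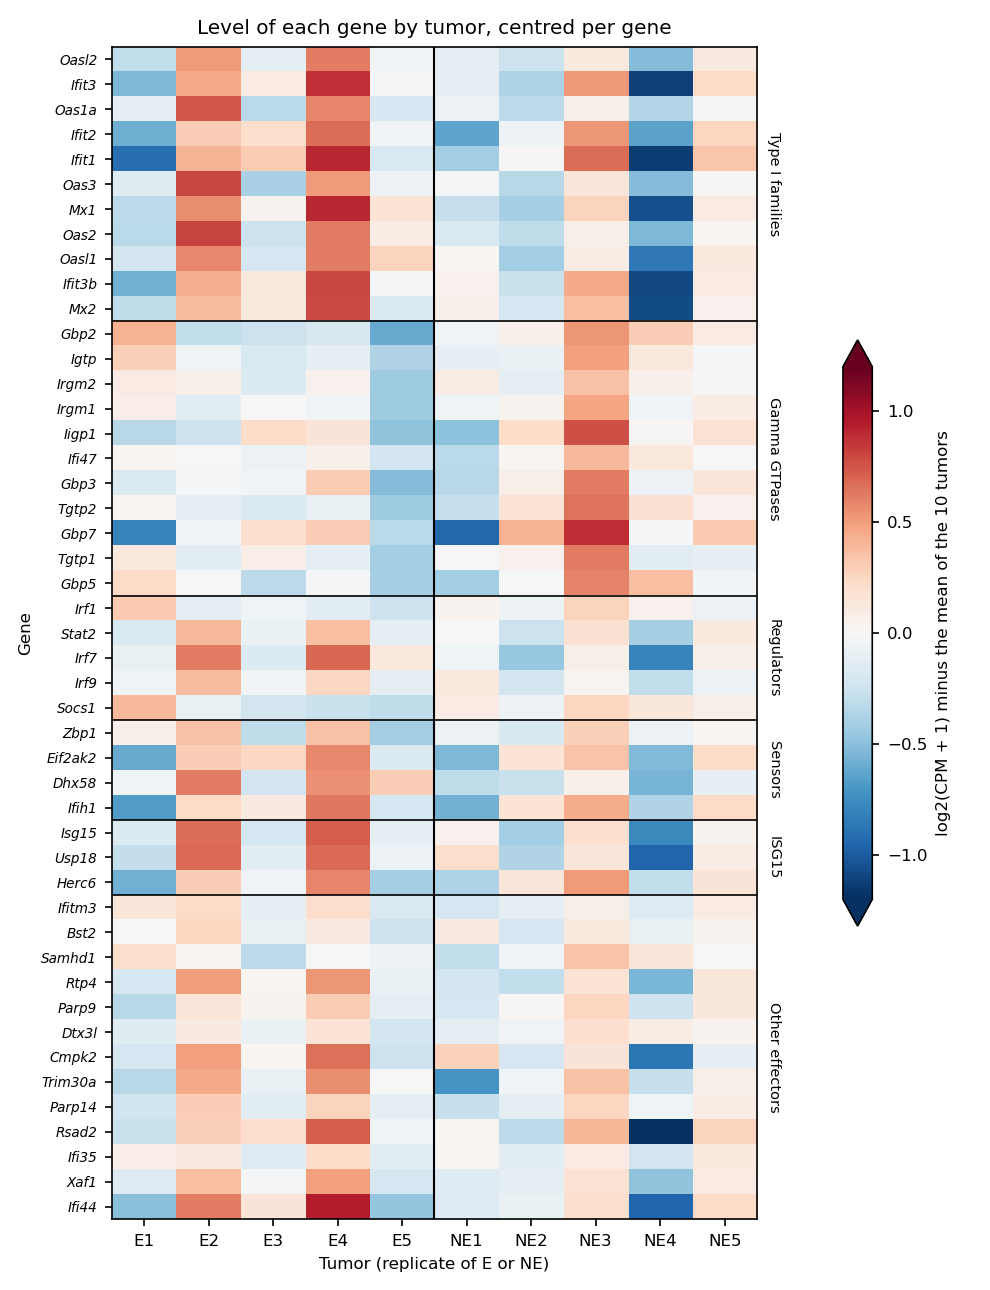
Level of each of the 47 genes in each tumor as log2(CPM + 1) minus the mean of the gene over the 10 tumors, with red above and blue below that mean, by role. The block of type I families is red in E2, E4 and NE3 and blue in NE4 and E1, faintly so for some genes in NE3 and E1. The block of GTPases is red in NE3 and blue in E5, and Irf1 and Socs1 are red in E1 and NE3.

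The heat map of centred levels shows the sensors and the ISG15 pathway following the type I block. The median fold changes depended on single tumors. Without E4 the median log2 fold change of the type I families was 0.17 and without NE4 it was 0.21. Without both tumors richest in skeletal muscle reads, NE4 and E2, a choice made after seeing the data, it was 0.11, with 10 of the 11 genes above 0. The median of the GTPases was -0.09 without NE3 and -0.14 without E5, and -0.23 without NE4 and E2. In NE4 the 12 muscle markers had 27873 CPM and in E2 3886 CPM, and NE4 was the lowest and E2 the second highest tumor in type I level. E5, the lowest tumor in GTPase level, had the highest fibroblast and neutrophil sums (15372 and 540 CPM). The part of these cell markers in the differences was not tested.

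Reads of the ligands themselves were sparse. All 21 interferon genes looked for were in the table, and 15 of them had 0 reads in every tumor. In the shallowest tumor this allows up to 0.199 CPM (3 reads) per gene, but only if its reads could be counted. Sequence shared between the ligands was not examined, and the counting method is not known. The skeletal muscle marker Tnnc2 had 0 to 3 reads, while Tnnt3 of the same list had 7 to 73411. Ifnb1, the gene of interferon beta, had 3, 3, 3, 1 and 1 reads in E1 to E5 and 3, 4, 11, 2 and 9 reads in NE1 to NE5, and Ifna1, Ifnab, Ifne and Ifnz had at most 3 reads in any tumor. Ifng, the gene of interferon gamma, was the only ligand with enough reads to test, with 159, 23, 66, 36 and 36 reads in E1 to E5 and 41, 46, 95, 72 and 74 reads in NE1 to NE5. Its FPKM was 2.54 ± 1.98 in E and 2.32 ± 0.714 in NE (log2 fold change 0.10, SE 0.458, FDR 0.981). E1 and NE3 had the most Ifng, and they were also the highest tumors of Irf1, Socs1 and Gbp2, but E1 ranked 6 of 10 in the level of all 11 GTPases and was among the lower tumors for Gbp7 (13.3 FPKM), Gbp3 (42.5 FPKM) and Iigp1 (48.8 FPKM).

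The receptors, their kinases and further signaling genes were expressed in both groups. Of 8 receptor and kinase genes tested, 6 had log2 fold changes above 0 and 2 below, 0 passed an unadjusted p of 0.05, and the smallest p belonged to Ifnar1, a chain of the type I receptor (log2 fold change 0.13, SE 0.0679, FDR 0.897), followed by Il10rb, a chain shared by the receptors of lambda interferons (0.15, SE 0.121). Ifnlr1, the other chain of that receptor, had 0 to 11 reads and was not tested. Of 15 further transducers, 8 were above and 7 below 0, and 0 passed. Their smallest p values were those of Ddx58, the sensor RIG-I (0.19, SE 0.132), and Ciita, the activator of MHC class II genes (-0.43, SE 0.449).

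Of 9 negative regulators tested, 5 were above and 4 below 0. Socs3, an inhibitor of cytokine receptors, had the smallest p (log2 fold change 0.24, SE 0.0769, unadjusted p = 0.0113, FDR 0.897 in edgeR's fit) and was the only one past an unadjusted p of 0.05, and Adar, which edits RNA duplexes, followed with 0.13 (SE 0.117). Trex1 was listed at 0 reads in every tumor, which need not mean that it was absent, since the counting method is not known. Of the 3 interferon-induced chemokines, Cxcl9, a target of interferon gamma, had 83.7 FPKM in E and 113 FPKM in NE (log2 fold change -0.47, SE 0.413), Cxcl11 had a log2 fold change of -0.31 (SE 0.290) and Cxcl10, which answers to both interferons, had 0.08 (SE 0.169), and 0 of the 3 passed.

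Markers of cells known as sources of interferon were also summed. The 10 markers of T and NK cells found in the table summed to 187 to 366 CPM in E and 241 to 339 CPM in NE, and the 5 markers of plasmacytoid dendritic cells, which can make large amounts of type I interferon, summed to 121 to 245 CPM in E and 171 to 223 CPM in NE. The latter sum came mainly from Tcf4 (2340 to 4943 reads), which other cells also express, and from Cox6a2 (3 to 1630 reads), also a muscle gene, while Siglech (1 to 131 reads), Ccr9 (0 to 72) and Klk1 (0 to 26) had few reads, so that it does not show such cells. In the T and NK cell list the largest read counts were those of Gzmb (up to 3142 reads) and Prf1 (up to 3339), against at most 323 for Cd3e. The T and NK cell sum did not order the tumors as the GTPase level did. It was highest in E4 (366 CPM) and NE1 (339 CPM), which ranked 5 and 9 in GTPase level, NE3, which ranked 1, had 300.3 CPM, and E5, which ranked 10, had the lowest sum (187 CPM). By type I level, E4 ranked 1, NE3 3, E5 5 and NE1 7. The part of T and NK cells in the class levels was not tested. In the 6 epithelial markers the range was 19.7 to 28.8 CPM in E and 25.1 to 102 CPM in NE. Of these lists, 0 markers were at 0 in every tumor.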

How the data were processed

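mRNA of 10 4T1 tumors was sequenced, 5 in E and 5 in NE, as grouped by the sample labels. The study's methods state TruSeq paired-end libraries, alignment by Hisat2 and FPKM from Stringtie. A single table was deposited by the authors, with read counts and FPKM for every gene and tumor. The counts are not normalized, how they were obtained is not given in the sources used here, and each deposited FPKM equals the count divided by gene length and total count (largest relative deviation 3.77e-14). The methods name a rat assembly, while the table holds mouse Ensembl identifiers and names no build. Its coordinates matched GRCm38 for 0 of the 47 genes, so positions printed are those of the GRCm38 reference only. Strand was not stated in the counting.

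Fits used R 4.3.3 and edgeR 4.0.16 (TMM, filterByExpr, glmQLFit, glmQLFTest, Benjamini-Hochberg FDR) on all genes, with positive log2 fold changes higher in E. A call needed an FDR no higher than 0.05 and a change of 2-fold or more. The same data were also fitted with DESeq2 1.42.0, with limma 3.58.1 (voom with quality weights, and trend on log2(FPKM + 1)), with edgeR's exact test, without TMM, under other filters and call rules, with a replicate block, and without each tumor in turn. The p-values test a difference between the groups against the spread between 5 tumors per group, which edgeR estimates with information from all genes. Class levels and correlations used log2(CPM + 1) with scipy 1.17.1 in Python 3.11.15. Shared stretches of 50 bases were counted in GENCODE transcripts.

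The genes, classes, context and marker lists were chosen with earlier results of these data known. Genes were named as the 4 of each class and 3 of each other role with the highest mean FPKM, the 6 with the smallest p, any whose groups did not overlap, the expressed ligands, the 2 of each other context list with the smallest p and the 8 nearest genes of each class. Socs1, Ifi44, Rsad2, Rtp4, Dtx3l, Tgtp1, Ifih1, Mx2, Gbp3, Gbp5, Gbp7, Iigp1, Ifit1, Ifnlr1, Trex1 and Cxcl10 were named after their values were seen. The values of 1 gene are not reported here.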

Additional observations from a re-analysis of the deposited data

Results flagged for a closer look

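Of 100 groups of 5 tumors examined for 1 tumor far from the other 4, 4 were past the limit, where chance gives about 5. In E, Socs1 was highest in E1 at 8.34 FPKM, with 5.07 to 5.96 FPKM in the other E tumors. In NE, Irgm1 was highest in NE3 at 90.6 FPKM, with 60.9 to 68.6 FPKM in the other tumors, and Tgtp1 was highest in the same tumor at 30.3 FPKM, with 16.9 to 20.1 FPKM elsewhere. In E, the mean log2(CPM + 1) of the 11 GTPases was lowest in E5 at 7.23, with 7.56 to 7.68 in the other E tumors.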

How the results depend on the processing

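In each of 21 alternatives 0 of the 47 genes were called. The median log2 fold changes ran from 0.11 to 0.48 for the type I families, -0.28 to -0.09 for the GTPases and 0.01 to 0.21 for all 47 genes. Each moved by less than the SD of the level between tumors, pooled over both groups. This SD was larger than the medians themselves, so that this limit could not show them to be stable. The number of genes at an unadjusted p of at most 0.05, which was 2, was 5 in DESeq2, 11 in limma-voom with sample weights, 1 in limma-trend, 0 with the replicate block, 0 without NE4 and E2, and 0 to 9 over the fits without 1 tumor (0 without E2, 1 without E4, E5, NE2 or NE4, 9 without E1). The cause was not tested. The share of all genes tested at such a p was 5.92% in DESeq2, 13.3% in the voom fit and 4.76% in limma-trend. It was 5.28% with the replicate block, 3.58% without E2 and 5.71% without E1. All 11 GTPases stayed below 0 in the 19 alternatives, and 11 of the type I genes stayed above 0 in all but the fits without E4 and without NE4 and E2 (10 in each). The median rho between the classes ran from -0.25 without NE3 to 0.13 on log2(FPKM + 1). The fit without NE4 and E2, the counts by direction and the refits of rho were added after seeing the data. Of 437 values for 23 named genes, 14 changed sign. Herc6 was 3.86e-05 without TMM and -0.21 to 0.11 without 1 tumor. Without NE4 and E2, Zbp1 was -0.0549 and Bst2 -0.0624. Without 1 tumor, Zbp1 was -0.0505 to 0.13, Bst2 -0.0526 to 0.0762 and Samhd1 -0.13 to 0.0192. The study speaks of matched pairs without saying what was matched, and the labels do not say that equal replicate numbers pair tumors. For each tumor, the deviation of every gene from its group mean was taken and correlated between E and NE tumors. Tumors of the same number gave 0.04, -0.16, -0.09, -0.32 and 0.32, and other pairings gave -0.66 to 0.66. The numbers were therefore not taken as pairs. The replicate block, under which neither Dhx58 nor Tgtp2 passed an unadjusted p of 0.05, is given only here.

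The call rule asks for a change of 2-fold or more, so differences of the size of these medians could not be called at any depth or number of tumors, though 0 of the 47 genes also had an FDR of at most 0.05 with no minimum fold. For a ligand, 0 reads set only an upper limit.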

Other observations

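The genes outside the list whose log2(CPM + 1) was most like a class level over the 10 tumors are given as a description. Nearest to the type I families were Tdrd7, Phf11d, Ddx58, Trim34a, Rnf213, Oas1g, Ddx60 and Daxx, with Pearson's r from 0.974 for Tdrd7 to 0.904 for Daxx. Their r with the GTPase level was at most 0.275 (Phf11d). Each had a log2 fold change above 0, from 0.10 for Tdrd7 to 0.46 for Oas1g (SE 0.253, FDR 0.897 in edgeR's fit), a relative of Oas1a with which it shares sequence. They were chosen for likeness to a class level with a higher mean in E, so this direction followed largely from the choice. Ddx60, an RNA helicase, had 3.48 ± 1.47 FPKM in E and 2.58 ± 0.752 FPKM in NE.

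Nearest to the GTPases were Gbp6, Gbp4, Serpinb9, Erlin1, Mterf3, Dcp2, Gimap9 and Cabp4, with Pearson's r from 0.951 for Gbp6 to 0.893 for Cabp4. Gbp4 and Gbp6 are further guanylate-binding proteins, and Serpinb9 encodes an inhibitor of granzyme B. Gbp4 had 30.9 ± 5.43 FPKM in E and 37.8 ± 9.78 FPKM in NE (log2 fold change -0.32, SE 0.180, FDR 0.897 in edgeR's fit). Cabp4 was near the detection limit, with 0.227 FPKM in E and 0.305 FPKM in NE. All 8 had log2 fold changes below 0, as did all 11 GTPases. The 8 were chosen for likeness to the GTPase level, which had a lower mean in E. Their direction followed largely from that choice and is not separate evidence, and all these genes share the same libraries.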
